A study of Macaca mulatta with 56 samples.

Results

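Messenger RNA of hippocampus, occipital cortex and prefrontal cortex was averaged within each animal, and the averages were compared between 7 estradiol-treated and 7 untreated old female rhesus macaques. The comparison used 42 of the 56 libraries of the series, 1 per region from each of the 14 animals, and left out the 14 amygdala libraries. Of 17807 rows in the table, 16354 had a mean value of at least 10 over the 42 libraries and were tested. A row was named only where its mean log2 level over the 3 regions lay within 2 of that in the amygdala and its symbol stood on 1 identifier, which held for 11796 rows.

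In the OvH-HT group (animals 36 to 42) the capsules held estradiol and serum estradiol averaged 82.1 pg/mL. In the OvH group (animals 30 to 35 and 43) the capsules were empty and serum estradiol averaged 6.6 pg/mL. All 14 animals were old females, for which the series gives ages of 19.4 to 23.2 years. They ate a Western-style diet with 36% of calories from fat, and had lost ovaries and uterus about 6 weeks after the diet began. No ovary-intact animal and no animal on chow entered the comparison, so it measures estradiol replacement within this diet and surgery. The series text gives 30 months for the study and 32 months for the serum average. Animals are the replicates here (n = 7 per group).

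Estradiol enters cells and binds the nuclear receptors encoded by ESR1 and ESR2, which act on transcription together with coactivators and corepressors, and it also acts through a membrane receptor. Neurons, astrocytes and cells of the vessel wall can all carry these receptors. In hippocampus and cortex the hormone is known for effects on synapses, cholesterol and myelin lipids, and inflammation.

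Libraries of the 3 regions held 34.63 to 90.2 M reads (median 62.1 M, in units of mega). Mean reads per library of an animal averaged 61.14 ± 9.772 M in OvH-HT and 61.83 ± 5.939 M in OvH (SD, n = 7 each; two-sided exact permutation p = 0.883). The row check against the amygdala was needed because amygdala columns and the other columns do not hold the same transcript on every row. Levels lay within 2 for 75.93% of rows, and for 33.52% when rows were moved by 50. From these shares about 14.8% of the rows with near levels were estimated to hold different transcripts in amygdala and in the other columns. Which columns fit the name was not tested, so values of such a row may carry a name that is not theirs.

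Both OvH hippocampus libraries labelled animal 30 and animal 43 went against their labels. Although all animals are females, these libraries held 8920 and 8963 reads of RPS4Y1, 3583 and 1041 of DDX3Y and 5100 and 1303 of USP9Y, all genes of the Y chromosome. In the other 40 libraries of the 3 regions the highest count of any of 8 Y-linked genes was 3 reads. Their regional profile also went against the label. Over the 500 rows that differed most between regions, the libraries labelled 30 and 43 correlated at 0.82 and 0.801 with the prefrontal cortex mean and at -0.524 and -0.504 with the hippocampus mean. The 12 other hippocampus libraries correlated at 0.727 to 0.956 with the hippocampus mean, and each of the 40 other libraries matched its own region best. These correlations are across rows, which are not independent replicates. Results are therefore given with all 42 libraries and again without these 2, where animals 30 and 43 are represented by their cortices in a fit with animal and region as terms. The Y-linked list was chosen after the data were seen.

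**Figure D1:**
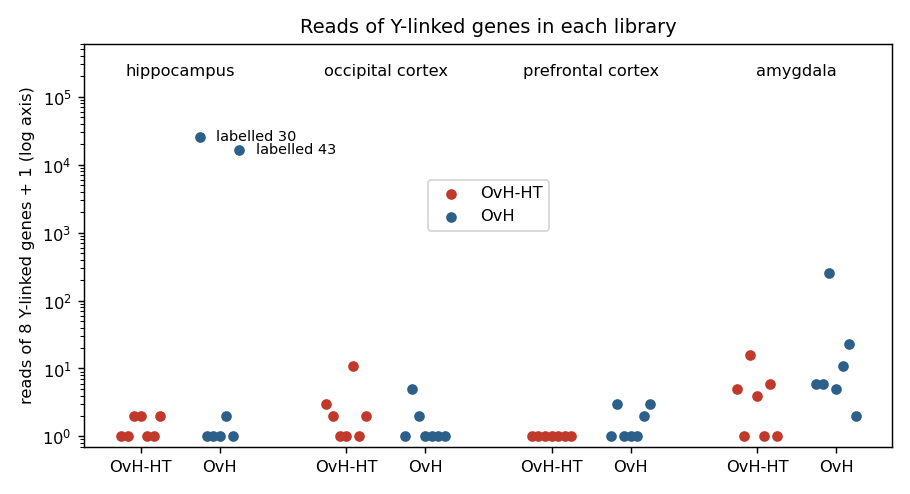
Summed reads of 8 Y-linked genes plus 1 (log axis) in each of 56 libraries, by region, with OvH-HT left of OvH and 1 point per library. The hippocampus libraries labelled 30 and 43 stand above every other library, and the next highest is an amygdala library of the OvH group.

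No row passed limma with the Benjamini-Hochberg adjustment at 0.05 in the average of the 3 regions (0 of 16354 tested, 0%), and none passed without the 2 libraries. With all 42 libraries 301 rows were higher (1.84% of those tested) and 216 lower (1.32%) in OvH-HT at an unadjusted p under 0.05. Without the 2 libraries these numbers were 549 (3.36%) and 503 (3.08%). With no difference at all, a share of about 0.05 of rows, higher and lower together, would fall under this threshold. The averages were precise enough to bound most differences: the 95% interval lay within 0.5 log2 units of 0 for 62.0% of rows and within 1 for 92.7%. The median residual SD was 0.277 in the average, and in single regions 0.450 (hippocampus), 0.402 (occipital cortex) and 0.334 (prefrontal cortex). By edgeR 0 rows passed, by DESeq2 9, or 0.055% of those tested, and in a fit with the animal as a replicate block 2, or 0.0122%. The edgeR and DESeq2 fits were run with all 42 libraries only.

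The row with the smallest p was KIAA1755 (ENSMMUG00000020172), a little characterised gene. Its level, as the geometric mean of normalized counts over the 3 regions, had its lowest, median and highest value at 897, 1019 and 1361 in OvH-HT and at 366, 551 and 843 in OvH. All 7 OvH-HT animals lay above every OvH animal. The difference was 0.92 on the log2 scale (SE 0.16; limma adjusted p = 0.459; two-sided exact permutation p = 0.000583, the smallest that 7 against 7 can give). It was 0.87 without the 2 libraries (SE 0.15, limma adjusted p = 0.219), and the groups stayed apart there too. By edgeR on reads summed per animal, with the 2 libraries included, KIAA1755 did not pass. By DESeq2 on the same reads it passed (0.94, adjusted p = 2.52e-06). In the fit with the replicate block it passed too (limma adjusted p = 0.0037), and it passed again on the 40 libraries (adjusted p = 0.0187). That fit took 1 within-animal correlation for all rows, 0.22 with all 42 libraries and 0.29 with the 40. For a row whose regions follow the animal more closely, the p of that fit is too small. Whether KIAA1755 is such a row was not tested. Every OvH-HT animal lay above every OvH animal on 3 rows (0.0183% of those tested) and below on 2 (0.0122%). Without the 2 libraries the numbers were 9 (0.055%) and 6 (0.0367%). With no difference at all a row separates in either direction with probability 0.000583, so some of 16354 rows would. KIAA1755 was picked by its p from these same values.

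The separation of KIAA1755 was clearest in hippocampus. Its normalized counts there were 1342, 1574 and 2312 (lowest, median, highest) in OvH-HT and 422, 806 and 948 in OvH. In occipital cortex they were 432, 744 and 1072 in OvH-HT and 246, 375 and 771 in OvH, and the groups overlapped. In prefrontal cortex they were 744, 983 and 1549 in OvH-HT and 440, 534 and 1151 in OvH, again with overlap. The differences were 1.17, 0.83 and 0.76, and 1.02 in hippocampus without the 2 libraries. The limma test of unequal differences between the 3 regions gave this gene an adjusted p of 0.9998.

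The row with the smallest p among those lower in OvH-HT that may be named was NRIP2, which encodes a protein that binds nuclear receptors. Its level was 680, 692 and 894 in OvH-HT and 923, 1060 and 1271 in OvH, with every OvH-HT animal below every OvH animal. The difference was -0.54 (SE 0.10; limma adjusted p = 0.587; exact permutation p = 0.000583). Without the 2 libraries it was -0.55 (SE 0.10, limma adjusted p = 0.219), with the groups still apart. By DESeq2 on reads summed per animal, with the 2 libraries included, NRIP2 passed (-0.57, adjusted p = 0.00391). By edgeR and in the fit with the replicate block it did not. The hippocampus difference of NRIP2, with the 2 libraries included, was -0.42, with -0.70 for occipital and -0.51 for prefrontal cortex.

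**Figure D2:**
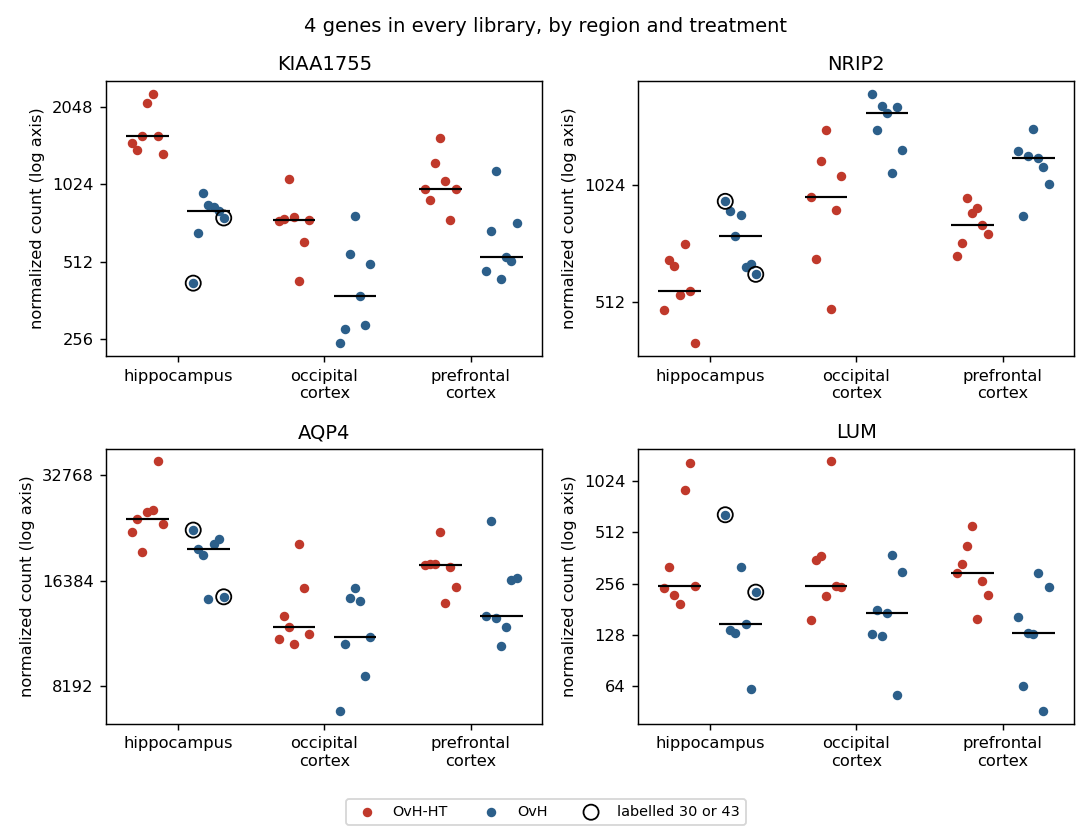
Normalized counts (log axis) of KIAA1755, NRIP2, AQP4 and LUM in each of 42 libraries, by region, with OvH-HT left of OvH and a bar at the median. Black rings mark the hippocampus libraries labelled 30 and 43. KIAA1755 separates the groups in hippocampus (1342 to 2312 in OvH-HT, 422 to 948 in OvH), while the other panels overlap in each region.

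The amygdala was not part of the average, although it came from the same animals, and its limma calls numbered 1112 of 16129 rows (6.89%), 994 higher and 118 lower. With libraries scaled to equal totals the calls were 616 higher and 1013 lower, and the median of all amygdala rows was -0.20, against 0.01 as deposited. In the average the same scaling moved the median of all rows only to 0.02. Of the 23 leading rows named here, KIAA1755, NRIP2 and ZSCAN26 passed there. KIAA1755 had amygdala counts of 533, 911 and 1295 in OvH-HT and 282, 403 and 1058 in OvH, a rise of 1.04 (limma adjusted p = 0.0345). That call did not hold with libraries scaled to equal totals (0.83, adjusted p = 0.0686) and held in 3 of 14 fits that each left out 1 animal. NRIP2 fell by 0.73 on the log2 scale, with counts of 369, 586 and 848 in OvH-HT and 794, 1026 and 1245 in OvH (limma adjusted p = 0.0184). With equal totals NRIP2 stood at -0.94 (adjusted p = 0.0137), and it passed in 14 of 14 fits that left out 1 animal. ZSCAN26, a zinc finger gene, rose by 0.73 (limma adjusted p = 0.0135, but 0.0599 with equal totals). With values as deposited ZSCAN26 passed in 14 of 14 fits that left out 1 animal. Its counts were 4271, 5304 and 8191 in OvH-HT amygdala and 2434, 3068 and 4352 in OvH amygdala.

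In the average of the 3 regions ZSCAN26 was at 2948, 3125 and 3866 in OvH-HT and at 2120, 2391 and 2949 in OvH, where 6 of 7 OvH-HT animals lay above every OvH animal. The difference was 0.35 with all libraries and 0.45 without the 2 (SE 0.09, limma adjusted p = 0.4996), and then all 7 lay above. In hippocampus alone ZSCAN26 stood at 0.11 with all libraries and at 0.39 without the 2.

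Glial genes were among those that leaned higher. PTPRZ1, a receptor phosphatase of oligodendrocyte precursors and astrocytes, had levels of 10690, 12410 and 13890 in OvH-HT and 8765, 10120 and 10590 in OvH. Every OvH-HT animal was above every OvH animal with all libraries, and 6 of 7 without the 2. The difference was 0.29 (SE 0.07; limma adjusted p = 1), and 0.26 without the 2. AQP4, the water channel of astrocyte endfeet, was at 16300, 17960 and 21590 in OvH-HT and at 12700, 14590 and 17390 in OvH. The ranges overlapped, with 4 of 7 OvH-HT animals above all OvH animals, and the difference was 0.30 (0.31 without the 2). GPRC5B, an orphan receptor, stood at 0.27 and 0.21.

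Among regulatory genes, NCBP1, a subunit of the nuclear cap-binding complex, was at 1866, 2324 and 2599 in OvH-HT and at 1614, 1765 and 2086 in OvH. The difference was 0.34 (0.36 without the 2 libraries), and 6 of 7 OvH-HT animals were above every OvH animal in both fits. EYA1, a transcriptional cofactor, was at 330, 377 and 419 in OvH-HT and at 174, 230 and 391 in OvH, a difference of 0.61 (0.57). PAQR8, a membrane progesterone receptor, had levels of 9908, 10800 and 12410 in OvH-HT and 7415, 9201 and 10170 in OvH. Its difference was 0.31 (SE 0.09, and 0.33 without the 2). By region it was 0.25 in hippocampus, with the 2 libraries included, 0.33 in occipital and 0.35 in prefrontal cortex. Lipid enzymes and binding proteins were CYP4F11, a fatty acid hydroxylase, at 0.65 (0.64), ACOT4, a peroxisomal thioesterase, at 0.57 (0.44), and PLA2R1, the receptor of secreted phospholipases, at 0.48 (0.49). None of these rows passed in either fit.

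On the lower side LNX2, a ubiquitin ligase, was at 304, 407 and 508 in OvH-HT and at 429, 615 and 873 in OvH. There 6 of 7 OvH-HT animals lay below every OvH animal, and the difference was -0.60 (SE 0.16; -0.69 without the 2 libraries). MT2A, a metal-binding metallothionein, was at 2220, 3014 and 3972 in OvH-HT and at 3057, 4509 and 6179 in OvH (-0.53, and -0.57 without the 2). FGF22, a growth factor that organises synapses, stood at -0.62 (-0.68), and NKD2, an antagonist of Wnt signalling, at -0.37 (-0.47). MUC3A, a mucin, depended more on the 2 libraries: -0.77 with them, and -0.58 without. VPS37C, of the endosomal sorting complex, stood at -0.65, LRRC20 at -0.24, SPSB3 at -0.29, ZNF414 at -0.28, ZC3H3 at -0.31 and GIPC1 at -0.22. The exact permutation p of these 12 lower rows, NRIP2 included, ran from 0.000583 to 0.0128, each unadjusted for 16354 rows.

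**Figure D3:**
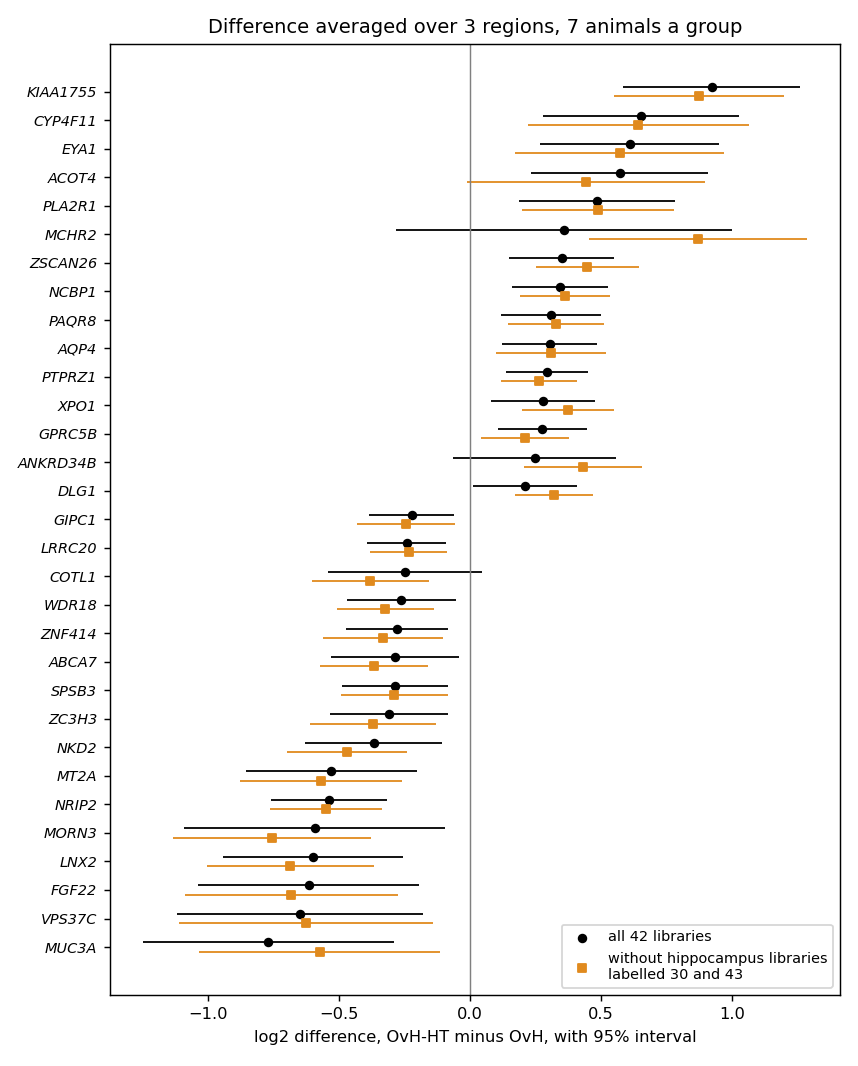
Log2 difference of OvH-HT minus OvH with its 95% interval for the 23 leading rows named here and for 8 further rows leading without the 2 libraries. Circles are the fit of all 42 libraries and squares the fit without the hippocampus libraries labelled 30 and 43. MCHR2 moves from 0.36 to 0.87, while KIAA1755 and NRIP2 stay near 0.9 and -0.5.

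Leaving out the 2 libraries brought other rows to the front, which were chosen after the data were seen. MCHR2, a receptor of melanin-concentrating hormone, had hippocampus counts of 314.1 and 422.8 in the libraries labelled 30 and 43. The 7 OvH-HT hippocampus libraries held 4.73 to 63.5 and the 5 other OvH ones 1.26 to 11.1. In prefrontal cortex the counts were 392.1 to 760.1 in OvH-HT and 260 to 615 in OvH. Its difference was 0.36 with all libraries (SE 0.30) and 0.87 without the 2 (SE 0.20, limma adjusted p = 0.617). DLG1, a synaptic scaffold, stood at 0.21 and 0.32, and the nuclear export receptor XPO1 at 0.28 and 0.37. ANKRD34B, an ankyrin repeat gene, stood at 0.25 and 0.43. Lower were MORN3 (-0.59 and -0.76), the lipid transporter ABCA7 (-0.29 and -0.37), WDR18 (-0.26 and -0.32) and the actin-binding COTL1 (-0.25 and -0.38). None of these 8 rows passed.

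The largest difference on a named row was that of IL3RA, a subunit of the interleukin 3 receptor, which is named here because DESeq2 called it and not by its rank. In OvH-HT animals 36 to 42 its level was 5.75, 117.9, 17.5, 278.3, 1.95, 204.6 and 409.2 in that order. In OvH animals it was 2.09 to 20.9 with a median of 4.11. Thus 4 of 7 OvH-HT animals lay above every OvH animal and 1 lay below all of them, at 1.95 against 2.09, both very low. The highest OvH level was that of animal 43. Its library labelled hippocampus, which went against its label, held 125.9, against 11.7 in occipital and 5.49 in prefrontal cortex. The 4 high animals were high in every region, with at least 75.01 normalized counts, and amygdala was included in that. The difference was 2.89 (SE 1.003; limma adjusted p = 1; DESeq2 adjusted p = 0.03997) and 2.96 without the 2 libraries. ADAMTS3, a procollagen-processing protease, was also called by DESeq2 (adjusted p = 0.00108). By limma its difference was 0.35 with all libraries and 0.26 without the 2. The other 7 DESeq2 calls were KIAA1755, NRIP2, 2 rows without a symbol, and KDM5D, ZFY and RPS4Y1, Y-linked genes whose reads lay in the 2 libraries. DESeq2 was not run without these 2 libraries.

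A row with no symbol, ENSMMUG00000058426, had a large difference in the other direction and is given because the fit with the replicate block called it. Its prefrontal cortex counts were 1.93 to 21.3 in 6 OvH-HT animals and 99.4 in animal 42, against 81.9 to 212 in OvH. In occipital cortex the same 6 animals had up to 20.2 and animal 42 had 222, against 96.4 to 411 in OvH. In hippocampus the libraries labelled 30 and 43 held 11.0 and 5.40, below the 96.6 to 263 of the 5 other OvH libraries. The difference in the average was -3.57 (SE 0.70, limma adjusted p = 0.587) and -3.97 without the 2 libraries (SE 0.67, limma adjusted p = 0.219). With the replicate block, and its 1 correlation for all rows, it passed (limma adjusted p = 7.92e-04). On the 40 libraries 4 rows passed in that fit (0.0245%): KIAA1755 and 3 rows without a symbol.

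Of 12 steroid receptor genes 8 could be named, and no member passed. ESR2, the gene of estrogen receptor beta, had levels of 7.00, 19.5 and 31.4 in OvH-HT and 14.9, 17.5 and 27.4 in OvH, which overlapped widely (-0.17, SE 0.30). ESRRA, an orphan receptor related to the estrogen receptors that acts on energy metabolism genes, was at 2518, 2780 and 3418 in OvH-HT and at 3026, 3214 and 3325 in OvH. There 5 of 7 OvH-HT animals lay below every OvH animal (-0.16, SE 0.07, two-sided exact permutation p = 0.0297; -0.18 without the 2 libraries). The glucocorticoid receptor gene NR3C1 was at 0.003 with an interval of -0.27 to 0.27, and at 0.13 without the 2. ESRRG, ESRRB, PGRMC1 and PGRMC2 stood between 0.05 and 0.08, and of these all but PGRMC2 changed sign under an alternative, as did NR3C1 and ESR2. Of 26 coregulator genes 13 were higher and 13 lower, with a median of -0.01 against 0.01 for all rows tested. Of 22 genes known to respond to estrogen in breast and uterine cells 14 were higher and 8 lower, with a median of 0.07 (0.04 without the 2), and none was at an unadjusted p under 0.05.

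Genes of fibroblasts of the meninges and vessels leaned higher most as a list. Of 12 such markers 11 were higher and 1 lower in OvH-HT, with a median of 0.46 in both fits, against 0.01 for all rows tested. Of all rows tested 52.5% were higher, a share to set beside the count of each list. At an unadjusted p under 0.05 were 4 of the markers, LUM (1.06), FMOD (0.77) and OGN (0.86), which encode matrix proteoglycans, and PI16 (0.49). Of all rows tested 1.84% were higher at that threshold. Without the 2 libraries 3 markers were, PI16 not among them (0.33), against 3.36% of all rows tested. LUM had levels of 224, 327 and 579 in OvH-HT and 54.4, 193 and 256 in OvH, and 5 of 7 OvH-HT animals lay above every OvH animal. COL1A1 and COL3A1, of fibrillar collagens, stood at 0.70 and 0.66. The summed level of the 12 markers was 17300 to 24320 in OvH-HT and 12890 to 18750 in OvH, and no marker was at 0. In bulk tissue more cells of a type and more RNA per cell cannot be told apart. Their share of tissue in each dissection was not measured.

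The hippocampus median of fibroblast markers was 0.73 (0.95 without the 2 libraries), with 0.40 for occipital and 0.22 for prefrontal cortex. The wider list of 42 extracellular matrix genes, which shares members with the markers, had 35 higher and 7 lower and a median of 0.14 (0.13 without the 2). Its hippocampus median was 0.44 (0.37 without the 2 libraries), and that of occipital cortex 0.12 and of prefrontal cortex -0.02. NID1 of basement membranes stood at 0.36, FN1, fibronectin, at 0.38 and COL6A3 at 0.41. With the fibroblast marker mean as a covariate LUM, itself part of that mean, stood at 0.29 and KIAA1755 at 1.11.

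Myelin genes showed how the 2 libraries entered a regional value. Of 13 oligodendrocyte markers 12 were higher, with a median of 0.19 (10 higher, 0.17 without the 2). In hippocampus alone the median was 0.47 with the libraries labelled 30 and 43 and 0.12 without them. In occipital and prefrontal cortex it was 0.05 and 0.04. The 0.17 of the average without the 2 libraries lay above 0.12, 0.05 and 0.04. It is not their mean, as animals 30 and 43 enter that fit by their cortices alone. UGT8, an enzyme of myelin lipid synthesis, had levels of 2769, 3553 and 4963 in OvH-HT and 1561, 2925 and 4067 in OvH (0.40, and 0.38 without the 2). Of 7 precursor markers 6 were higher (median 0.13, and 0.16 without the 2), and of 15 astrocyte markers 11 were (0.15, and 0.10). All 10 pericyte and muscle markers were higher (0.13), but 8 without the 2 (0.08). Endothelial markers were 9 higher and 5 lower (0.16), with TEK, the angiopoietin receptor, at 0.28 and EGFL7, a secreted factor of endothelial cells, at -0.29.

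Cholesterol synthesis and uptake genes were higher for 15 of 19, with a median of 0.13, but for 12 of 19 and 0.05 without the 2 libraries. HMGCS1, the synthase before the rate-limiting step, was at 5874, 8579 and 9790 in OvH-HT and at 4298, 6225 and 7812 in OvH, a difference of 0.37 (0.31 without the 2). Without the 2 libraries as many members were lower as higher at an unadjusted p under 0.05, 2 each. The lower ones were MVK, mevalonate kinase, at -0.24 (-0.19 with all libraries), and SREBF1, a transcription factor of lipid synthesis genes, at -0.26 (-0.16). Of 27 chaperone genes 20 were higher (0.09), such as HSPH1 at 0.25.

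**Figure D4:**
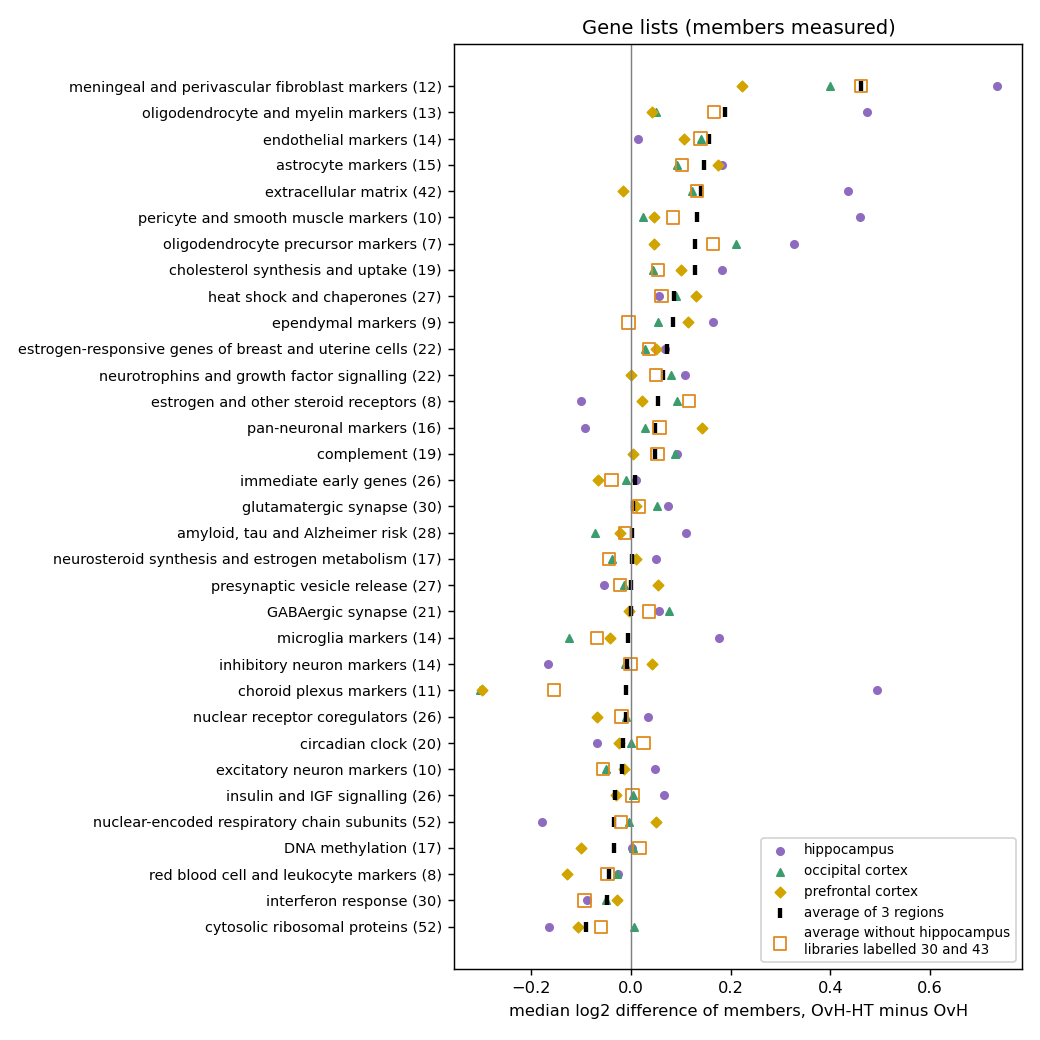
Median log2 difference (OvH-HT minus OvH) of the named members of 33 gene lists in each region and in the average, with and without the hippocampus libraries labelled 30 and 43, and the number of members in brackets. Fibroblast markers stand highest in the average at 0.46, and the hippocampus value of myelin markers, 0.47, includes the 2 libraries.

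Of 30 interferon genes 13 were higher and 17 lower (median -0.05), against 7767 of 16354 lower among all rows tested. At an unadjusted p under 0.05 were 3 of the lower ones, where 1.32% of all rows tested were, and none of the higher ones. MX1, an antiviral GTPase, was at 1338, 1599 and 2530 in OvH-HT and at 1710, 2659 and 2833 in OvH (-0.40, and -0.47 without the 2 libraries). ISG15 stood at -0.72 and IFI44L at -0.86. Ribosomal protein genes were lower for 47 of 52 with a median of -0.09 (39 of 52 and -0.06 without the 2). The same members had a median of 1.21 in amygdala, and 0.997 with equal totals. Respiratory chain subunits were lower for 38 of 52 with a median of -0.03 (30 of 52 and -0.02 without the 2), against 0.60 in amygdala, or 0.39 with equal totals. The hippocampus medians of the ribosomal and respiratory lists were -0.16 and -0.18, and -0.18 and -0.20 without the 2 libraries. Those of occipital cortex were 0.0056 and -0.0047, and those of prefrontal cortex -0.11 and 0.05. The difference from the amygdala was not tested. Synaptic lists lay near 0, with medians of 0.0042 for 30 glutamatergic, -0.00050 for 21 GABAergic and -0.00043 for 27 presynaptic genes, signs that changed with the scaling. Single receptor genes there leaned higher, GABRA2 at 0.29 and GRM3 at 0.16. Pan-neuronal markers had a median of 0.05 over 16 genes and microglial markers one of -0.01 over 14.

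With all 42 libraries the medians of the remaining lists in the average lay close to that of all rows, while single members could lie far from it. Members of the immediate early list ran from -1.73 to 0.44. Medians were 0.06 for 22 growth factor genes, with FGF1 at 0.22, 0.05 for 19 complement genes, 0.01 for 26 immediate early genes, with JUNB at -0.46, and 0.002 for 17 steroid metabolism genes. They were 0.002 for 28 Alzheimer risk genes, -0.02 for 20 clock genes, -0.03 for 26 insulin signalling genes and -0.03 for 17 DNA methylation genes. With TMM scaling the medians of the immediate early, steroid metabolism and Alzheimer lists were below 0. Excitatory and inhibitory neuron markers stood at -0.02 and -0.01. Choroid plexus, ependymal and blood cell markers stood at -0.01, 0.08 and -0.04, and at -0.15, -0.0051 and -0.05 without the 2 libraries. The choroid plexus median was 0.49 in hippocampus with all libraries and -0.0004 without the 2. In occipital and prefrontal cortex that list had medians of -0.30 and -0.30.

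Differences between regions in the estradiol effect were tested within animals. The interaction test passed 0 of 16354 rows, with 181 at an unadjusted p under 0.05, and without the 2 libraries it passed 0 with 302. In each region alone limma also passed 0 rows. These tests do not show that the 3 regions respond alike: the median SE of a difference was 0.237 for hippocampus, 0.211 for occipital and 0.177 for prefrontal cortex.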

How the data were processed

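The deposited table holds a normalized read signal made by the authors, which its name calls upper-quartile normalized counts, and every upper quartile was 2819. Per the submitters' processing notes, FastQC 0.1.1.2, Trimmomatic, STAR 2.7.3a, edgeR 3.28.0 and the build Mmul_10 were used; the counting program and its annotation are not given in the sources used here. Per the labels' protocols, stranded messenger RNA libraries were read in pairs of 150 bases. Whole reads were recovered by undoing the scaling (100% of values whole within 0.01 reads), and count tests on reads summed per animal were alternatives.

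Each animal's log2(value + 1) was averaged over its 3 libraries. Rows with a mean of at least 10 were fitted with limma 3.58.1 (R 4.3.3, intensity trend, 7 against 7, two-sided, Benjamini-Hochberg over 16354 rows, threshold 0.05). The procedure was also run on counts simulated with the spreads of the real fit, and the outcome is not given here. Differences are OvH-HT minus OvH on that scale, which understates changes of low rows. Unequal effects between regions were tested by an F test with the animal as a fixed block. Alternatives were edgeR 4.0.16, DESeq2 1.42.0, other pseudocounts, filters and scalings, array weights, covariates, the replicate block, 2 of 3 regions, and leaving out animals or libraries.

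The regions of 1 animal are paired by the subject number in the labels. Over the 500 most variable named rows 39 of 42 libraries correlated best with the mean of the other regions of the same animal. The exceptions were hippocampus libraries labelled 30 and 33 and occipital cortex of animal 30. Counted among the 39 is the hippocampus library labelled 43, which went against its label and correlated with its own animal at only 0.18. No 2 libraries were near copies (lowest chi-square per degree of freedom 35.55). Whether capsules, surgery or sequencing fell into batches is not given in the sources used here.

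Named were the 12 higher and 12 lower rows with the smallest p, the steroid receptors and, from each list, the member with the smallest p in each direction; some genes the rule picks are not reported here, and further list members are examples chosen after their values were seen. The comparison, the lists and the naming rule were chosen with earlier results of these data known. The 8 higher and 8 lower leads of the fit without the 2 libraries, and the rows called by an alternative, were added after the data were seen. Gene symbols were paired with 15123 of 17807 identifiers. About 14.8% of near rows may hold different transcripts in amygdala and in the other columns, and values there may carry another gene's name. Antisense or overlapping partners were not separated.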

Additional observations from a re-analysis of the deposited data

Results flagged for a closer look

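Of 192 groups of 7 animals examined over 96 named genes, 9 held an animal far from the others. Chance alone marks about 1 group in 20, and 9 of 192 is no more than that share. The value in each case is the animal's gap to its nearest neighbour as a share of the group's whole range on the log2 scale, and each lay above Dixon's limit for 7 values. In OvH-HT, animal 40 was lowest for ESRRG (0.724), highest for RPL41 (0.705) and highest for PGRMC2 (0.573), and animal 37 was highest for CD163 (0.596). In OvH, animal 30 was lowest for MVK (0.638), animal 32 lowest for PRLR (0.593), which was listed at 0 there, and animal 43 lowest for CYP4F11 (0.591). Also in OvH, animal 33 was highest for VPS37C (0.613) and animal 35 for ESR2 (0.599). The averages of animals 30 and 43 include the hippocampus libraries that went against their labels, and their part in these values was not tested.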

How the results depend on the processing

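The count of 0 called rows became 9 with DESeq2 (4 higher, 5 lower) and 2 with the replicate block (1 and 1). With the replicate block on the 40 libraries, chosen after the data were seen, it became 4 (3 higher, 1 lower). It ran from 0 to 1 when 1 animal was left out, the 1 being the row without a symbol, called without OvH-HT animal 42. Rows at an unadjusted p under 0.05, 517 with all libraries, numbered 1052 without the 2 libraries, 856 with the replicate block on the 40 libraries, 806 with array weights, 843 without hippocampus and 292 without occipital cortex, and 330 (without OvH-HT animal 38) to 705 with 1 animal left out. Hippocampus alone gave 1 call with equal totals, and prefrontal cortex 1 with a pseudocount of 16. Of 96 named genes, 14 changed sign under some alternative, none of the 23 leads among them, and the cause was not tested. With the fibroblast marker mean as covariate these were CNN1 (-0.0897), PRLR (-0.0515), MCHR2 (-0.11), ALDH1L1 (0.0183), MRC2 (0.11), MEGF11 (0.15), RPL41 (-0.0720), ESRRG (-0.17), ESRRB (-0.23) and NR3C1 (-0.18), and with the myelin mean PGRMC1 (-0.0258). Without occipital cortex these were KRT19 (0.0485), ALDH1L1 (0.00888), MRC2 (0.0503), ESRRG (-0.0583) and NR3C1 (-0.0464), without hippocampus ESRRB (-0.16), and without prefrontal cortex NR3C1 (-0.0276). Without animals 32 and 40 these were PRLR (-0.0221), MRC2 (0.0771), MEGF11 (0.0217), RPL41 (-0.0440) and NR3C1 (-0.0386), and without the hippocampus libraries of animals 33 and 40 ESRRB (-0.0895) and NR3C1 (-0.0246). PGRMC1 was -0.00563 with the replicate block on 40 libraries. With array weights RPL41 was -0.0453 and NR3C1 -0.00915. ESRRB was -0.0297 with a pseudocount of 16, -0.13 with edgeR and -0.13 with DESeq2, and NR3C1 -0.00497 with TMM, -0.0413 with edgeR and -0.0442 with DESeq2. With 1 animal left out the ranges were -0.29 to 0.0400 for C1QA, -0.18 to 0.0193 for MRC2, -0.32 to 0.0125 for ESR2, -0.22 to 0.0349 for MEGF11, -0.0119 to 0.16 for PGRMC1, -0.0635 to 0.0933 for RPL41, -0.15 to 0.31 for ESRRG, -0.11 to 0.18 for ESRRB and -0.0467 to 0.11 for NR3C1. The median SE in the average was 0.147, and low rows such as ESR2 had wider intervals.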

Other observations

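The leading rows were also compared, animal by animal, with the amygdala, which the average did not use. Each relation ran across 14 animals on deviations from the mean of the animal's own group. Of 23 relations 15 had a Pearson r above 0 and 8 below 0. By the adjusted permutation p 3 passed 0.05 for Pearson's r and 2 for Spearman's rho. The amygdala level followed the average for ACOT4 (Pearson r = 0.83, permutation p adjusted to 0.00345; Spearman rho = 0.77, adjusted to 0.0215; r = 0.77 without the 2 farthest animals). NRIP2 showed r = 0.68 (adjusted permutation p = 0.0330), rho = 0.79 (adjusted 0.0215) and r = 0.63 without the 2 farthest. For VPS37C r was 0.90 (adjusted permutation p = 0.00345), rho 0.67 (adjusted 0.0892) and r 0.57 without the 2 farthest. KIAA1755 had r = 0.58 (adjusted permutation p = 0.117) and rho = 0.49 (adjusted 0.247), and r = 0.43 without the 2 farthest, which did not pass. LNX2 ran the other way, with r = -0.65 (adjusted permutation p = 0.0572), rho = -0.63 (adjusted 0.0991) and r = -0.37 without the 2 farthest, and it did not pass either.

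On the first principal component of the animal averages, which held 28.2% of the variance, OvH-HT animal 40 and OvH animal 32 stood apart from the rest.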
